A study of Mus musculus with 8 samples.

Results

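The miR-322, miR-503, miR-351, miR-542 and miR-450 cluster is a group of miRNA genes that lie close together on one strand of the mouse X chromosome. Its 10 members examined here were taken by name: mmu-miR-322-5p, mmu-miR-322-3p, mmu-miR-503-5p, mmu-miR-503-3p, mmu-miR-351-5p, mmu-miR-542-5p, mmu-miR-542-3p, mmu-miR-450a-5p, mmu-miR-450b-5p and mmu-miR-450b-3p (the prefix mmu, for mouse, is left out from here on). All 10 were on the array, out of 1881 mouse miRNAs. They were measured in exosomes, small vesicles released by cells, that had been collected from amniotic fluid by size-exclusion chromatography. In the LPS group (4 arrays), pregnant mice had received lipopolysaccharide, a bacterial cell wall component, at 100 μg/kg into the peritoneum on day 14 of pregnancy, and delivered preterm about 48 h later. The cesarean group (4 arrays) was amniotic fluid taken at cesarean section, and no strain and no injection is given for it in the labels. Both groups carry the label of day 17 of pregnancy, which differs from the day of injection plus 48 h in the LPS group. LPS injection and preterm delivery against cesarean section differ together between the groups, so their parts cannot be told apart. Below, higher or risen with LPS means in the LPS group against the cesarean group, not an effect of the injection alone. Nothing in the labels says whether the 4 samples of a group came from separate mothers, so the p-values below measure only the spread between these samples, which may be technical.

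A miRNA hairpin can give a 5p and a 3p strand, and each mature strand pairs with messenger RNAs mainly through its seed, bases 2 to 8. The cluster is expressed in placenta and in developing muscle. In mouse muscle precursor cells miR-322 and miR-503 restrain the cell cycle through the phosphatase Cdc25A, and the human counterpart of miR-322 is named miR-424. miR-322-5p has the seed of the miR-15/16 family, which represses cyclins and other cell cycle genes, and miR-351-5p has the seed of the miR-125 family.

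The sequences below, from RefSeq (GRCm38.p6), are shown because the results are given per mature strand and because the seeds set which other miRNAs the members are compared with. The seed is in capitals. All 10 members were matched, all lie on chromosome X, and their 10 seeds are all different.
miR-322-5p: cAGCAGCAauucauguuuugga
miR-322-3p: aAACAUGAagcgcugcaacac
miR-503-5p: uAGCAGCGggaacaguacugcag
miR-503-3p: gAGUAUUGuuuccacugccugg
miR-351-5p: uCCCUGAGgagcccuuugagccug
miR-542-5p: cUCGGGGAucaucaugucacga
miR-542-3p: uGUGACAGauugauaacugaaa
miR-450a-5p: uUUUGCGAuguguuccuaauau
miR-450b-5p: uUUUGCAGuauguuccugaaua
miR-450b-3p: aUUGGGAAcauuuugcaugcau

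miR-322-5p and miR-503-5p share bases 2 to 7 and part at base 8. Over the whole strand, seed included, 11 of 22 aligned positions are identical. miR-450a-5p and miR-450b-5p are identical at 15 of 22 positions. In RefSeq the 7 hairpins of the cluster span 6.35 kb. On the transcribed strand miR-503 starts 0.29 kb after miR-322, the mature miR-351-5p lies at 1.01 kb, miR-542 starts at 4.86 kb, and the hairpins of miR-450-2, miR-450-1 and miR-450b start at 5.98, 6.11 and 6.27 kb. The hairpins of miR-322, miR-503 and miR-351 lie inside the noncoding RNA gene C430049B03Rik, and the other 4 do not. In the array files, which use mm9, the probe for miR-322-5p is placed at chrX:50407455-50407475 and that for miR-503-5p at chrX:50407174-50407188. The files list the miR-542 and miR-450b probes as unmapped.

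All 8 arrays were on 1 slide, with the LPS samples in the upper row and the cesarean samples in the lower, so slide row and group cannot be told apart. Between 405 and 519 miRNAs per LPS array and between 413 and 554 per cesarean array were well above background, and no spot was saturated. LPS array 1 stood apart: its median correlation over miRNAs was 0.846 with the other LPS arrays and 0.902 with the cesarean arrays. The number of arrays, 4 a group, limits the precision. Levels below are log2 signals after each array was divided by its 75th percentile, with a floor of 3.75 under which dim signals were not read. A miRNA was tested if 3 or more of the 4 arrays of either group showed any of its probes well above background. These levels depend on the probe, so they are compared between arrays and not between miRNAs.

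Of the 10 members, 8 could be tested, and miR-322-5p and miR-542-5p were higher in the LPS group. The 2 calls are 2 of 8 tested members at an adjusted p under 0.05 (limma, Benjamini-Hochberg over all 470 tested miRNAs), where 2.55% of all tested miRNAs were called higher and 4.89% were called in either direction. No member was called lower, and none was lower at an unadjusted p under 0.05 (limma). All 8 had a higher mean in the LPS arrays, against 45.5% of all tested miRNAs, and 6 were higher at an unadjusted p under 0.05 against 13.8%. In 5 members the 2 groups did not overlap, with every LPS array above every cesarean array, against 9.79% of all tested miRNAs. The median difference was 1.11 over the 8 tested members and -0.06 over all 470 tested miRNAs, on the log2 scale. miR-351-5p passed the filter on dim signals through the LPS arrays alone, so its higher mean there follows from the filter. The other tested members also passed through the cesarean arrays. These counts describe the tested members and not the whole cluster. The number called rested on which arrays were in the fit: it was 6 without LPS array 1, 2 without LPS array 4, 1 without LPS array 3 or cesarean array 4, and 0 without LPS array 2 or without cesarean array 1, 2 or 3.

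**Figure D1:**
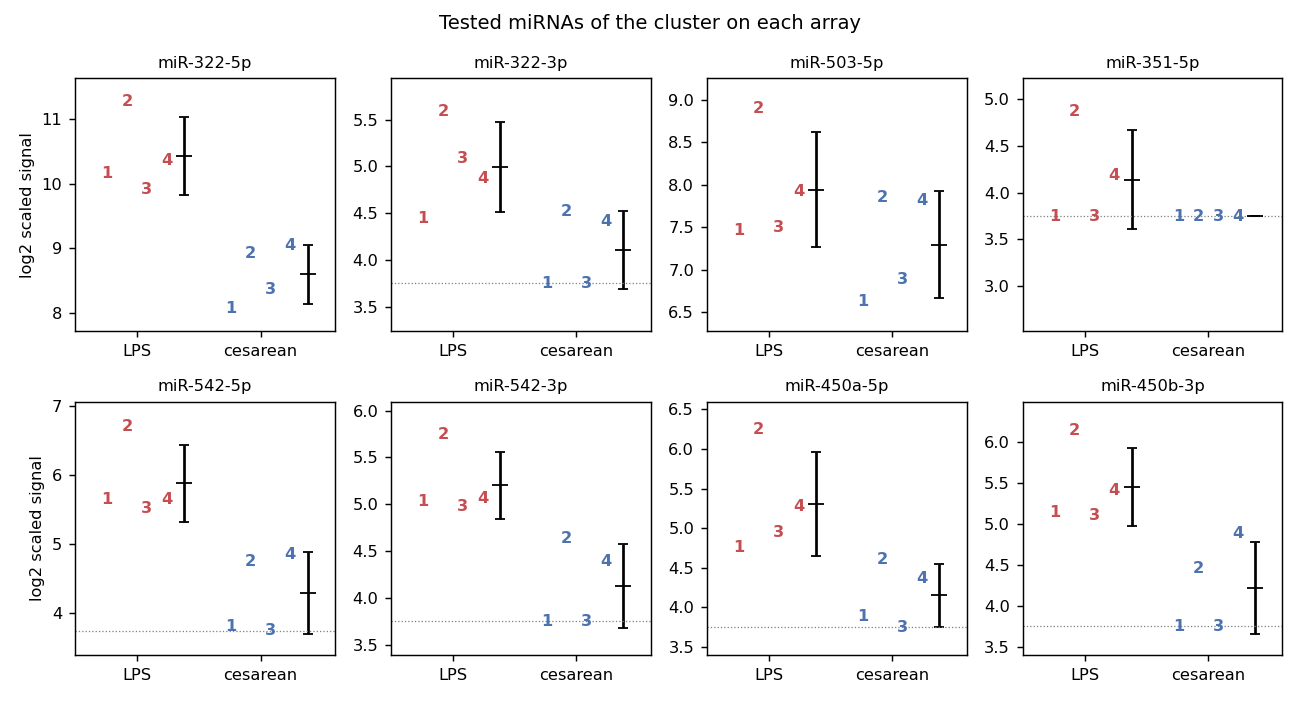
Level of each of the 8 tested cluster members (vertical axis, log2 scaled signal, a separate scale in each panel) in the LPS samples (red) and the cesarean samples (blue). Each digit is the array of that number, bars are the mean ± SD of 4 arrays, and the dotted line is the floor at 3.75; miR-322-5p and miR-542-5p do not overlap between the groups, and miR-503-5p does.

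miR-322-5p, the brightest member, had log2 levels of 10.15, 11.28, 9.90 and 10.36 in LPS arrays 1 to 4, against 8.06, 8.91, 8.35 and 9.04 in cesarean arrays 1 to 4. The lowest LPS array lay above the highest cesarean array. The mean was 10.42 ± 0.60 with LPS and 8.59 ± 0.46 at cesarean (SD, n = 4 each), a rise of 1.83 (SE 0.35, 95% interval 1.06 to 2.61), or 3.56-fold (adjusted p = 0.0268, limma). By size of rise it was the 4th of 470 miRNAs. Its probes of 21 and 22 bases gave the same difference, 1.83. Each was printed many times on the array, and in the brighter one the kept spots on an array varied by 2.45% to 9.78% of their mean, far less than the arrays of a group varied. The difference was 1.55 to 2.01 over 22 alternatives, and the call was lost in 8 of them. These were leaving out LPS array 2 (adjusted p = 0.0535) or cesarean array 1, 2 or 3 (0.0714, 0.0582 and 0.0745), no scaling (0.166), spike-in scaling (0.15), no filter (0.226) and slide column as a block (0.0714, limma).

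miR-322-3p, the other strand of the same hairpin, was dim. It had levels of 4.44, 5.59, 5.08 and 4.87 in the LPS arrays, against 3.75, 4.52, 3.75 and 4.41 in the cesarean arrays, where 3.75 is the floor. The groups overlapped, since LPS array 1 lay under cesarean array 2. The difference of 0.88 (SE 0.31) did not pass the test (adjusted p = 0.109, limma). It was 0.15 in the authors' deposited table, 0.20 with normexp background correction, 0.22 with the mean over probes and 0.32 with a floor 2 times as high, and without LPS array 1 it was called (1.07, adjusted p = 0.0372, limma). It was read from 1 of its 4 probes, the longest at 14 bases; the 3 shorter ones were not above background on any array.

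miR-503-5p, whose hairpin follows that of miR-322, was well above background on all 8 arrays but was not called. Its levels were 7.46, 8.90, 7.50 and 7.92 in the LPS arrays, against 6.63, 7.85, 6.89 and 7.82 in the cesarean arrays. Cesarean arrays 2 and 4 lay above LPS arrays 1 and 3, so the groups overlapped. The mean was 7.94 ± 0.67 with LPS and 7.30 ± 0.63 at cesarean (SD, n = 4 each), a difference of 0.65 with a 95% interval of -0.24 to 1.54 (adjusted p = 0.341, limma). The difference was 0.33 without LPS array 2 and 0.43 without cesarean array 1. The interval includes no change as well as rises close to the estimate for miR-542-5p. Its passenger strand, miR-503-3p, was not well above background on any array with any of its 4 probes, of 10 to 13 bases.

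miR-351-5p was well above background on 3 LPS arrays and on no cesarean array. Its levels were 3.75, 4.87, 3.75 and 4.18 in the LPS arrays, and all 4 cesarean arrays were at the floor. Taken without the floor, the LPS arrays had a mean log2 signal of 3.60, against 3.47 for the lowest signals that count as above background. That mean includes LPS array 1. Its scaled signal before the floor and before log2 was 3.32, under every cesarean array (5.32 to 9.44). LPS arrays 2 to 4 had 29.3, 12.5 and 18.1. No rise is therefore read from that mean. With the floor, the difference was 0.39 (SE 0.28, adjusted p = 0.409, limma). miR-351-5p did not pass the test, and its size in the cesarean arrays was not measured.

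miR-542-5p was the other member that rose. Its levels were 5.65, 6.71, 5.52 and 5.65 in the LPS arrays, against 3.81, 4.75, 3.75 and 4.86 in the cesarean arrays. Every LPS array lay above every cesarean array, and cesarean array 3 was not above background. The mean was 5.88 ± 0.56 with LPS and 4.30 ± 0.59 at cesarean (SD, n = 4 each), a difference of 1.59 (SE 0.37, 95% interval 0.77 to 2.40), or 3.01-fold (adjusted p = 0.0378, limma). The call was lost in 13 of 21 alternatives, with a difference of 0.50 to 1.78 and an adjusted p of 0.0226 to 0.378 (limma).

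miR-542-3p, from the same hairpin, had levels of 5.03, 5.74, 4.97 and 5.06 in the LPS arrays, against 3.75, 4.63, 3.75 and 4.39 in the cesarean arrays. The groups did not overlap. The difference of 1.07 (SE 0.29) just missed the threshold (adjusted p = 0.064, limma). Cesarean arrays 1 and 3 were at the floor, which is an upper limit for them.

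Of the miR-450 strands, miR-450b-3p and miR-450a-5p were tested. miR-450b-3p had levels of 5.14, 6.14, 5.11 and 5.41 in the LPS arrays, against 3.75, 4.46, 3.75 and 4.89 in the cesarean arrays, a difference of 1.23 (SE 0.34, adjusted p = 0.064, limma). miR-450a-5p, which 2 hairpins encode with the same sequence, had 4.76, 6.24, 4.95 and 5.27 in the LPS arrays, against 3.88, 4.60, 3.75 and 4.37 in the cesarean arrays, a difference of 1.16 (SE 0.35, adjusted p = 0.0771, limma). In both, every LPS array lay above every cesarean array, and neither passed the threshold. Over 21 alternatives the difference ran from 0.30 to 1.46 for miR-450b-3p and from 0.27 to 1.37 for miR-450a-5p, as it did for miR-542-3p, and each of these 3 was called without LPS array 1 and under quantile normalization. miR-450b-5p was well above background on LPS array 2 alone, at 4.03, and was not tested. Just inside the threshold stood miR-542-5p, and just outside it miR-542-3p and miR-450b-3p.

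**Figure D2:**
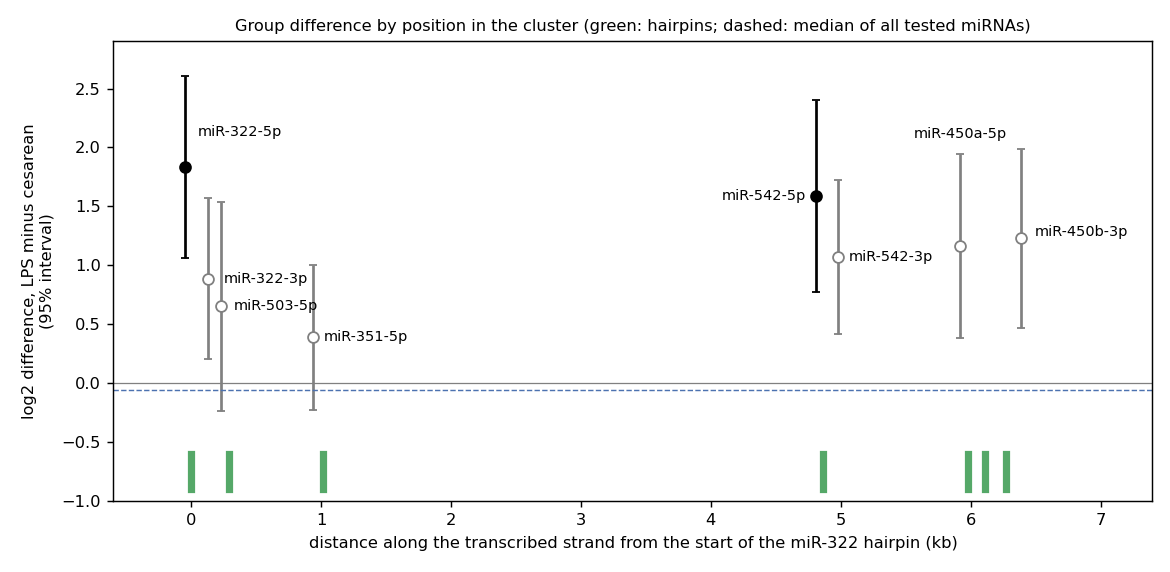
Difference between the LPS and the cesarean samples (vertical axis, log2, points with 95% intervals) against position along the transcribed strand in kb from the start of the miR-322 hairpin. Filled points passed the test, open points did not, green bars mark the hairpins, 5p and 3p points are moved slightly left and right of their place, and the dashed line is the median of all tested miRNAs at -0.06; the filled points, miR-322-5p at 1.83 and miR-542-5p at 1.59, lie at 0.02 and 4.88 kb with lower estimates between them.

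Each probe covers the 3′ end of its miRNA and stops at a different base. The 4 probes of miR-542-5p from the array files, written 5′ to 3′ with the bases beyond the shortest probe in capitals, are shown because the shortest was not above background on any array.
miR-542-5p, 16 bases: tcgtgacatgatgatc
miR-542-5p, 17 bases: tcgtgacatgatgatcC
miR-542-5p, 18 bases: tcgtgacatgatgatcCC
miR-542-5p, 19 bases: tcgtgacatgatgatcCCC

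The probe of 17 bases was above background on 5 arrays and gave a difference of 0.96, the probe of 18 bases was above background on 7 arrays and gave 1.45, and the probe of 19 bases gave 1.59 on 7 arrays (miR-542-5p, log2, LPS less cesarean). Probes of 18 to 21 bases for miR-450b-3p gave 0, 0.80, 1.12 and 1.23 in the same order, the shortest being dark on every array. For miR-450a-2-3p the order was the other way, with the probe of 19 bases above background on 4 arrays and that of 20 bases on 2. Of the cluster's 32 probes, 16 could be tested. Some of these passed the filter through the LPS arrays alone, and probes of 1 miRNA read the same RNA. Their directions are therefore not counted. In a fit over 887 probes 4 of the 16 were called, 2 each of miR-322-5p and miR-542-5p, where 2.82% of all tested probes were called higher.

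miR-450b-3p differs at only 2 of 22 positions from miR-450a-1-3p, a strand of a neighbouring hairpin that was not among the 10 members. Their probes of 20 bases, with the bases that differ in capitals, are shown because the array told them apart.
miR-450b-3p probe: atGCatgcaaaatgttccca
miR-450a-1-3p probe: atTTatgcaaaatgttccca

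The miR-450b-3p probe was above background on 7 arrays, and the miR-450a-1-3p probe on none. The signal read as miR-450b-3p therefore did not light the probe of the near-identical strand. The remaining strands of the hairpins were dim too: miR-450a-2-3p was above background on 2 LPS and 2 cesarean arrays, miR-351-3p on no LPS array and 1 cesarean array, and neither was tested.

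The tested members shared a pattern over the arrays, also within a group, but how many of all tested miRNAs share it was not counted. After each member was set to a mean of 0 over the 8 arrays, the mean over the 8 tested members was 0.18, 1.32, 0.23 and 0.47 in the LPS arrays, against -0.94, -0.18, -0.90 and -0.18 in the cesarean arrays. LPS array 2 was the highest of all 8 arrays for all 8 tested members. Cesarean arrays 2 and 4 both lay above cesarean arrays 1 and 3 in all 7 tested members that were above background on any cesarean array. Of the 8 tested members, 6 were at the floor on cesarean array 3 and 4 on cesarean array 1. The size of the split was not measured in those. The 75th percentile before scaling was 448.1, 349.2, 214 and 226.2 in cesarean arrays 1 to 4, and its part in the split was not tested. The members share arrays and scaling, so this is a description of these 8 arrays.

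**Figure D3:**
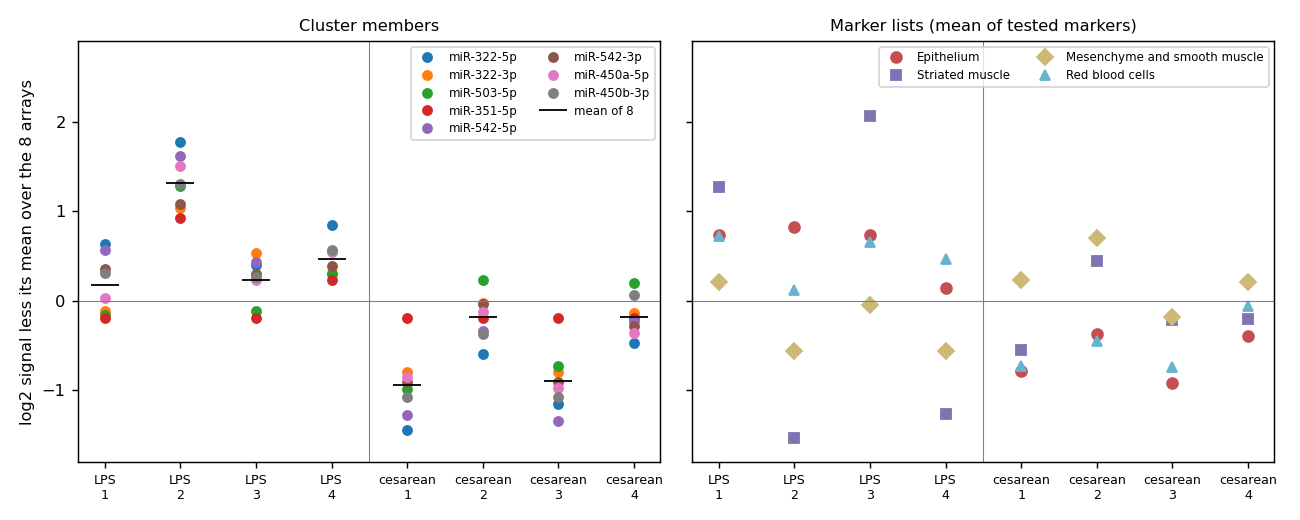
Log2 signal of each tested cluster member (left panel) and mean of each marker list (right panel), less the mean over the 8 arrays (vertical axis), on LPS arrays 1 to 4 and cesarean arrays 1 to 4 (horizontal axis). Black bars are the mean of the 8 members, highest at 1.32 on LPS array 2 and lowest at -0.94 and -0.90 on cesarean arrays 1 and 3; the epithelial markers lie above 0 on every LPS array and below 0 on every cesarean array, and the striated muscle markers range from -1.53 to 2.07 within the LPS arrays.

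Exosomes of amniotic fluid can come from several cell types, and in such mixed material fewer vesicles from a cell type and less miRNA per vesicle cannot be told apart. In the marker counts, rose means called higher by limma at an adjusted p under 0.05, as were 2.55% of all tested miRNAs. Marker miRNAs of epithelium, the miR-200 family, moved with the groups: all 5 were tested and 3 of 5 rose. Their mean relative to the 8 arrays was 0.14 to 0.83 with LPS and -0.92 to -0.37 at cesarean. Of the 3 tested kidney and intestine markers, 2 rose (0.41 to 1.11 with LPS, -0.93 to -0.37 at cesarean), and of the 3 tested of 4 red cell markers, 1 rose (0.12 to 0.72 with LPS, -0.74 to -0.06 at cesarean). Of 5 leukocyte markers, 3 were tested and 1 rose (-0.11 to 0.48 with LPS, -0.42 to -0.01 at cesarean). None of the 4 striated muscle markers (-1.53 to 2.07 with LPS, -0.55 to 0.44 at cesarean) or the 6 mesenchyme and smooth muscle markers (-0.56 to 0.21 with LPS, -0.18 to 0.70 at cesarean) was called by limma at an adjusted p under 0.05. The mean of the mesenchyme and smooth muscle list joins opposite directions. Differences were -0.98 for miR-199a-3p, -1.03 for miR-199a-5p, -0.87 for miR-199b-5p and -1.34 for miR-214-3p. They were 0.62 for miR-143-3p and 0.71 for miR-145a-5p. All but miR-143-3p passed an unadjusted p under 0.05 (limma). The liver marker miR-122-5p ran from -0.98 to 3.79 with LPS and from -2.27 to 1.0 at cesarean and was not called. The part of these cell types in the cluster's difference was not tested.

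Comparing members on the same array removes the scaling, and miR-322-5p then rose relative to its neighbour. miR-322-5p less miR-503-5p was 2.69, 2.38, 2.40 and 2.43 in the LPS arrays, against 1.43, 1.06, 1.46 and 1.22 in the cesarean arrays. The values cluster tightly in each group and do not overlap, although miR-503-5p itself overlapped between the groups. The mean was 2.48 ± 0.14 with LPS and 1.29 ± 0.19 at cesarean (SD, n = 4 each), and the difference of 1.19 had p = 0.0286 in the two-sided exact permutation test over the 70 allocations of 8 arrays (adjusted p = 0.0343 over the 12 pairs tested of 14 planned). That p is the smallest this design can give. Without any 1 of the cesarean arrays the difference was 1.11 to 1.24 and the adjusted p was 0.0571 to 0.0686, and with the scanner software's total signal it was 1.18 with an adjusted p of 0.0571 (exact permutation test). These differences in log2 signal between strands depend on the probes and are not ratios of abundance, so only their change between groups is read.

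Against dim members of the cluster, the difference of miR-322-5p was larger by 0.95 relative to miR-322-3p, 0.76 relative to miR-542-3p and 0.68 relative to miR-450a-5p (each adjusted p = 0.0343, exact permutation test). Those partners had cesarean arrays at the floor, which makes these values upper limits. The call was lost in 6, 8 and 5 of 15 alternatives for miR-322-3p, miR-542-3p and miR-450a-5p, in the range of 0.63 to 1.80, 0.56 to 1.41 and 0.58 to 1.59, and with a floor 0.5 times as high the value was 0.63 against miR-322-3p (adjusted p = 0.114) and 0.56 against miR-542-3p (adjusted p = 0.137, exact permutation test). The pair with miR-351-5p, which was at the floor on every cesarean array, is not read. miR-542-5p rose by 0.52 relative to the other strand of its hairpin, miR-542-3p (adjusted p = 0.0343, exact permutation test). Over 15 alternatives that value ran from 0 to 0.66 and the call was lost in 12, and on cesarean array 3 both strands were at the floor.

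**Figure D4:**
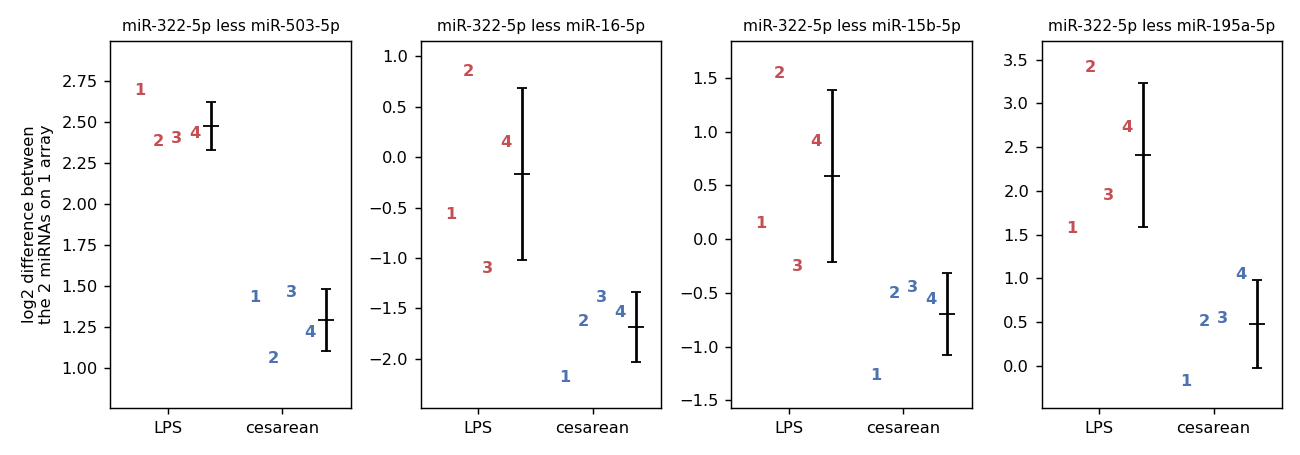
Log2 signal of miR-322-5p less that of miR-503-5p, miR-16-5p, miR-15b-5p or miR-195a-5p on the same array (vertical axis, a separate scale in each panel), in the LPS samples (red) and the cesarean samples (blue). Digits are array numbers and bars are the mean ± SD of 4 arrays; no panel overlaps between the groups, and miR-322-5p less miR-503-5p has the least spread, 2.48 ± 0.14 with LPS and 1.29 ± 0.19 at cesarean.

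None of the measured miRNAs from other chromosomes that carry the seed of miR-322-5p was called. RefSeq holds 9 other mouse miRNAs with that seed, of which miR-195b was not on the list examined here. Of that list of 10 relatives, 8 carry the seed in RefSeq. Of these, 3 were not above background on any array, and the other 5 could be tested. Their adjusted p ran from 0.22 to 0.864 (limma), and none passed an unadjusted p under 0.05. miR-16-5p had levels of 10.72, 10.43, 11.02 and 10.21 in the LPS arrays, against 10.25, 10.54, 9.74 and 10.58 in the cesarean arrays, which overlap. The differences were 0.45 for miR-15a-5p, 0.55 for miR-15b-5p, 0.32 for miR-16-5p, -0.10 for miR-195a-5p and -0.14 for miR-497a-5p, with a median of 0.32. The 95% intervals of all 5 include 0, and that of miR-15b-5p reaches 1.13. Whether the probes of these relatives and of miR-322-5p also read each other's strands was not tested. Over the whole strand, seed included, miR-16-5p is identical to miR-322-5p at 12 of 22 positions. The sequences of the 5 relatives show the shared seed and the different 3′ parts.
miR-15a-5p: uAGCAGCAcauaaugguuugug
miR-15b-5p: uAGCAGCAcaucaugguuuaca
miR-16-5p: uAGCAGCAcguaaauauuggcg
miR-195a-5p: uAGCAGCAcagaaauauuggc
miR-497a-5p: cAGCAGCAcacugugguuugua

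On the same array, miR-322-5p less miR-16-5p was -0.57, 0.85, -1.11 and 0.15 in the LPS arrays, against -2.19, -1.63, -1.39 and -1.54 in the cesarean arrays. miR-322-5p thus rose by 1.51 relative to miR-16-5p, by 1.29 relative to miR-15b-5p and by 1.94 relative to miR-195a-5p (each adjusted p = 0.0343, exact permutation test). For miR-16-5p the difference was 1.34 to 1.61 without any 1 of the cesarean arrays (adjusted p 0.0686 to 0.0762), 1.44 under quantile normalization (adjusted p = 0.0935) and 1.52 with total signal (adjusted p = 0.0571, exact permutation test), none of which passed. miR-503-5p less miR-16-5p overlapped between the groups, with a difference of 0.33 (p = 0.6, exact permutation test), which turned to -0.05 without LPS array 2.

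The seed of miR-351-5p is that of the miR-125 family. Of 4 relatives with this seed 3 were tested, and none passed the adjusted threshold (limma), with differences of -0.24 for miR-125a-5p, -0.95 for miR-125b-5p (adjusted p = 0.0771) and -0.76 for miR-6394 (adjusted p = 0.104). Of these, 2 were lower at an unadjusted p under 0.05. miR-125b-5p had 9.97, 9.46, 9.99 and 9.19 in the LPS arrays, against 11.01, 10.74, 10.06 and 10.59 in the cesarean arrays. Within-array differences from miR-351-5p, which was at the floor on 6 of the 8 arrays, follow the miR-125 strand there and are not read.

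**Figure D5:**
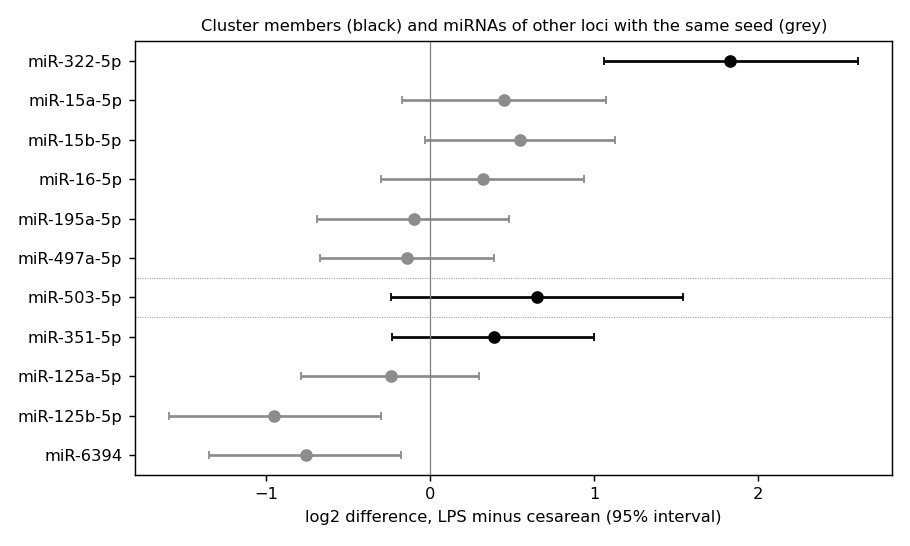
Log2 difference between the LPS and the cesarean samples (horizontal axis, points with 95% intervals) for cluster members (black) and for tested miRNAs of other loci that share their seed (grey). Above the upper dotted line are miR-322-5p and its seed relatives, between the lines miR-503-5p, and below them miR-351-5p and its seed relatives; the interval of miR-322-5p, 1.06 to 2.61, lies above 0 and those of its 5 tested relatives include 0.

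miRNAs of the imprinted genes H19 and Igf2, which are also active in placenta, were measured as well. Of 4 strands 3 were tested, with differences of -0.55 for miR-675-3p, -0.49 for miR-483-5p and -0.27 for miR-483-3p. None was called, and none passed an unadjusted p under 0.05 (limma).

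The array profile of miR-322-5p was compared with those of the other members and of miRNAs outside the cluster. Likeness was the root mean square difference of the centred log2 levels over 8 arrays, so smaller is more alike. Among the tested members the nearest to miR-322-5p were miR-542-5p at 0.19, miR-450b-3p at 0.33 and miR-450a-5p at 0.39, and miR-503-5p was at 0.61. The members nearest to miR-542-5p, after miR-322-5p, were miR-450b-3p at 0.22 and miR-450a-5p at 0.30. Among the 336 miRNAs outside the cluster that were above background on all arrays, the likeness to miR-322-5p was 0.40 for miR-200c-3p, 0.41 for miR-467b-5p, 0.43 for miR-183-5p, 0.46 for miR-467e-5p and 0.46 for miR-467a-3p, with a median of 1.15 over these 336. Among the same 336, the 5 nearest to miR-542-5p were miR-183-5p at 0.32, miR-467b-5p and miR-200c-3p at 0.35, miR-467e-5p at 0.36 and miR-467a-3p at 0.42. The members were not held to that limit, and miR-542-5p itself was above background on 7 arrays. Dimmer miRNAs outside the cluster were not compared, so distances inside and outside it come from unlike sets. miR-200c-3p, a miRNA of epithelial cells, averaged 9.22 ± 0.24 with LPS and 7.80 ± 0.22 at cesarean (SD, n = 4 each), and it rose by 1.42 (adjusted p = 0.0108, limma). miR-467b-5p, miR-183-5p, miR-467e-5p and miR-467a-3p differed by 0.99 to 1.23, and none of these 4 was called (adjusted p 0.0696 to 0.0817, limma).

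The slide columns each held 1 LPS and 1 cesarean array. In column 1 to column 4, miR-322-5p was higher with LPS by 2.09, 2.37, 1.56 and 1.32, and miR-542-5p by 1.84, 1.96, 1.77 and 0.78. With slide column as a block in the fit neither was called (adjusted p = 0.0714 for miR-322-5p and 0.085 for miR-542-5p, limma). miR-503-5p was higher with LPS by 0.83, 1.05, 0.61 and 0.11. For the 5 members whose groups did not overlap, a higher LPS array in every column follows from that. The share over all tested miRNAs was not computed, so no count over columns is read. miR-351-5p was at the floor in both arrays of columns 1 and 3. In the authors' deposited value table the difference was 1.95 for miR-322-5p, 1.54 for miR-542-5p and 0.69 for miR-503-5p, so the order of these 3 was the same.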

How the data were processed

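RNA from amniotic-fluid exosomes was hybridised, in 1 colour, to Agilent mouse miRNA arrays. Spot intensity was deposited as background-subtracted processed signal from Feature Extraction 10.7.1.1, per the file headers; the submitters' processing notes name version 9.1. The log2 values in the authors' deposited value table have no stated scaling; its column medians were 2.14 to 2.15, and over 470 miRNAs each of the 8 columns correlated best with its own array (r 0.964 to 0.972). Arrays were grouped by their descriptions.

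Control, outlier and non-uniform spots were removed (2.99% to 3.48% of miRNA spots). Spots of a probe were averaged, and a probe was above background where a share of 0.5 or more of the kept spots was. Each array was divided by its 75th percentile over the 618 probes above background on all 8 arrays, values were floored at 13.5 (log2 3.75), and the brightest probe stood for a miRNA. Of 1881 miRNAs, 470 were tested with limma 3.58.1 (R 4.3.3, lmFit and eBayes, Benjamini-Hochberg) over the 4 LPS and 4 cesarean arrays. Within-array differences were tested by two-sided exact permutation. The fit was tested on simulated data. Alternatives covered scaling, background, probe summary, floor, filter, slide column and leaving out each array. Named miRNAs were the members, their seed relatives, marker lists and the 5 nearest profiles. The members and lists were chosen with earlier results of these data known. Of the 10 listed relatives of miR-322-5p, miR-497b does not carry the seed and miR-1907 was not in the RefSeq table; neither was counted as a relative, and neither was called.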

Additional observations from a re-analysis of the deposited data

Results flagged for a closer look

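LPS array 2 lay far from the other LPS arrays for both strands of miR-542. miR-542-5p was 6.71 there, with the other 3 between 5.52 and 5.65, and miR-542-3p was 5.74, against 4.97 to 5.06. In each, the gap to the nearest array took more of the group's range than Dixon's critical value for 4 samples. Of 15 groups of 4 arrays examined, 2 did so, where chance gives about 1 in 20. Both strands are from 1 array and 1 hairpin, and the cause was not tested.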

How the results depend on the processing

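Among cluster members and among all miRNAs tested, 2 and 23 were called. The counts were 2 and 14 with the percentile taken over all probes, 0 and 1 with no scaling, 0 and 1 with spike-in scaling, 5 and 37 with quantile normalization, 1 and 15 with normexp background correction, and 1 and 8 with the scanner software's total signal. They were 1 and 17 with a floor 2 times as high, 1 and 15 for miRNAs above background on all arrays, 0 and 2 with no filter, and 0 and 1 with slide column as a block. With the authors' deposited table the counts were 2 and 30, and with the mean over probes 2 and 28. They were 2 and 23 with a floor 0.5 times as high, and also with the trend and robust options of eBayes. Leaving out 1 array gave 0 to 6 members and 2 to 79 of all miRNAs. The cause was not tested. All 167 member differences under the alternatives that gave one stayed above 0. These refits reuse the same arrays, and for miR-351-5p the direction follows from the filter. How many other tested miRNAs keep their sign was not computed, so this count is only a description. Of 171 pair differences 1 reversed: miR-503-5p less miR-16-5p ran from -0.05, without LPS replicate 2, to 0.62. The median of all tested miRNAs was -0.20 unscaled or with spike-in scaling. Dim signal over background limits every member except miR-322-5p and miR-503-5p. No paired analysis was possible because the labels give the arrays no shared replicate numbers; the slide column block pairs places on the slide, not samples.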
